A study of Mus musculus with 44 samples.

Results

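The genes described here are 33 lysosome and autophagy genes, read in mouse ovarian follicles exposed to PFNA (perfluorononanoic acid, a long-chain perfluoroalkyl acid). They were chosen by symbol, with earlier results of these data known, and all 33 are present in both deposited gene tables, which share 16728 symbols. The follicles came from wild-type CD-1 mice, an outbred stock, and RNA was read from bulk poly-A-selected libraries. In the maturation window, in which follicles grow under gonadotropin, 11 control libraries received the solvent DMSO and 10 received PFNA. In the ovulation window, 12 control libraries received hCG (human chorionic gonadotropin, the hormone that triggers ovulation) and 11 received hCG with PFNA, so hCG is common to both groups of that window. The dose of PFNA, the exposure times and the age of the mice are not given in the labels, nor is whether libraries of a group came from separate cultures or animals. The p-values therefore measure the spread between these libraries, which may be technical.

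The lysosome is the acidic organelle in which cells break down proteins, sugars and lipids. A proton pump, the V-ATPase, acidifies it, soluble hydrolases do the degradation, and a coat of glycosylated membrane proteins and ion channels surrounds them. Autophagy delivers the cell's own material to it: the ULK1 kinase complex and the Beclin 1 lipid kinase complex start a membrane, WIPI proteins read its lipid, ATG5 and ATG7 take part in conjugating ATG8 proteins (LC3 and GABARAP) to it, and the closed autophagosome fuses with the lysosome. TFEB and TFE3 are related transcription factors that bind E-box letters in the promoters of many of these genes, and their entry into the nucleus is restrained by mTORC1 at the lysosome. In the ovary, granulosa cells clear dying neighbours and organelles during follicle growth and atresia, and resident macrophages are rich in cathepsins.

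Because TFEB and TFE3 are both members, the members' promoters were searched for the core of their E-box, CACGTG, which reads alike on both strands. RefSeq promoters (GRCm38.p6, 250 bases before to 50 after the start) were found for 27 of the 33 members, as 32 promoters. Becn1, Galns, Ctsh, Map1lc3a, Atp6v1h and Ctsb had no entry. CACGTG occurred in 10 of the 27 genes (37%), against 8.09% of the 27025 genes in the promoter table. Counted by promoter of the same length, it was in 31.2% of the members' 32 and in 7.15% of all 32851. The longer GTCACGTG, which contains the core and was searched on both strands, occurred in 7 members (25.9%) and in 2.55% of all genes. These backgrounds hold every gene with a promoter entry, whether or not it was tested in either window. A share over tested genes only was not computed. The stretches below lie upstream of the gene start, with CACGTG in capitals and all else in lower case. They are shown for Mcoln1, which changed most in the ovulation window, for Gaa and Glb1, hydrolases that were higher there, for Lamp1, which has the most matches and was not called, and for Hexa, which rose without a match. All 5 lie on the plus strand, at chr8:3500269-3500456 for Mcoln1, chr11:119267713-119267886 for Gaa, chr9:114400828-114401075 for Glb1, chr8:13158911-13159160 for Lamp1 and chr9:59539290-59539539 for Hexa.
Mcoln1: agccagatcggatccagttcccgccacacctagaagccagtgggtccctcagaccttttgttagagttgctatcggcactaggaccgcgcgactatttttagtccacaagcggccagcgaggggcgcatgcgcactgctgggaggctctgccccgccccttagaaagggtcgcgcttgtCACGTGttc
Gaa: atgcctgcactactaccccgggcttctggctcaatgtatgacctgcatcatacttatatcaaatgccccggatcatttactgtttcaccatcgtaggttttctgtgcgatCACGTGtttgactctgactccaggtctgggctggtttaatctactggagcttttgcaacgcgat
Glb1: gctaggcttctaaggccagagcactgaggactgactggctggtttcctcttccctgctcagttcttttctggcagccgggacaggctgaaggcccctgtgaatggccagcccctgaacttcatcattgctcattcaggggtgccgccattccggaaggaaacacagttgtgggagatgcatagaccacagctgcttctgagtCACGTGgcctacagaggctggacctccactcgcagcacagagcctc
Lamp1: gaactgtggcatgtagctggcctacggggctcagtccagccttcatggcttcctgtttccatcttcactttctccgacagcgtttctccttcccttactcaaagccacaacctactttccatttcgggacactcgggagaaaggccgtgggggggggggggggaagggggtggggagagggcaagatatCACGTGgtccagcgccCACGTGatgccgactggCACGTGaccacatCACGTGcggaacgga
Hexa: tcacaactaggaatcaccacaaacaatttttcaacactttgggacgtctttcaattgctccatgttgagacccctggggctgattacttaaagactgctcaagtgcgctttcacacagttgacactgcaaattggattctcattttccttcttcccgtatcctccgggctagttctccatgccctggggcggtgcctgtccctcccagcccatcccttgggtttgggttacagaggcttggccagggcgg
Counted back from the RefSeq start, the printed match begins at -71 in Mcoln1, at -140 in Gaa and at -48 in Glb1, and Lamp1 has matches at -61, -45, -28 and -15. A further Mcoln1 match at -45 lies past the printed stretch. The remaining members with a match were Ctsa, Ctsd, Atp6v0d1, Atg5, Atg7 and Atp6v1a. A match is a description of letters, not evidence of binding.

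Most of the hydrolase genes among the members rose with PFNA in the ovulation window, while members at the start of the autophagy pathway were mixed or lower. Of 33 members tested with edgeR's quasi-likelihood test, 17 were called higher and 5 lower at a Benjamini-Hochberg adjusted p under 0.05. That is 66.7% of the members against 73.2% of all 13441 genes, so being called was not more frequent than elsewhere in this window. In direction they stood at 51.5% higher and 15.2% lower, against 38.0% and 35.2% of all genes, and their median log2 fold change was 0.36 against 0.04. For 7 members every PFNA library lay above every control (11.9% of all genes did so) and for Tfe3 every PFNA library lay below every control (14.1%).

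Differences were smaller in the maturation window. Of 32 members tested with limma on log2(TPM + 1), 7 were called higher (Ctsa, Ctsk, Lamp2, Atp6v1h, Gabarapl1, Wipi1 and Ulk1) and 1 lower (Atg5). That is 25% called against 29.4% of all 13712 genes, with 21.9% higher against 13.3% and 3.12% lower against 16.1%. The members' median log2 fold change was 0.18 against 0.02 for all genes, and for 0 members were the groups fully apart (0.489% of all genes lay above and 0.788% below). Atg7 had a mean under 1 TPM and was not tested there. TPM is scaled to transcript length, and fold changes on the log2(TPM + 1) scale understate those of low genes.

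The effect itself differed between windows for 13 of 32 members (40.6%), against 67.7% of the 11215 genes tested in both tables. It was higher in the ovulation window for 8 (25% against 32.0%) and lower for 5 (15.6% against 35.6%). With median-ratio size factors these were 12 and 4, and over all genes 3853 and 3745 in place of 3593 and 3995. These tests compare effects within tables, since levels in TPM and CPM cannot be set against each other. Called higher in both windows were 5 members, Ctsa, Ctsk, Atp6v1h, Gabarapl1 and Wipi1. Ulk1 was higher in the maturation window and lower in the ovulation window. In neither window were 8 members called: Ctsh, Ctsz, Gusb, Lamp1, Tfeb, Atp6v1a, Map1lc3b and Gabarapl2. The shares of all genes with these pairs of calls were not computed.

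**Figure D1:**
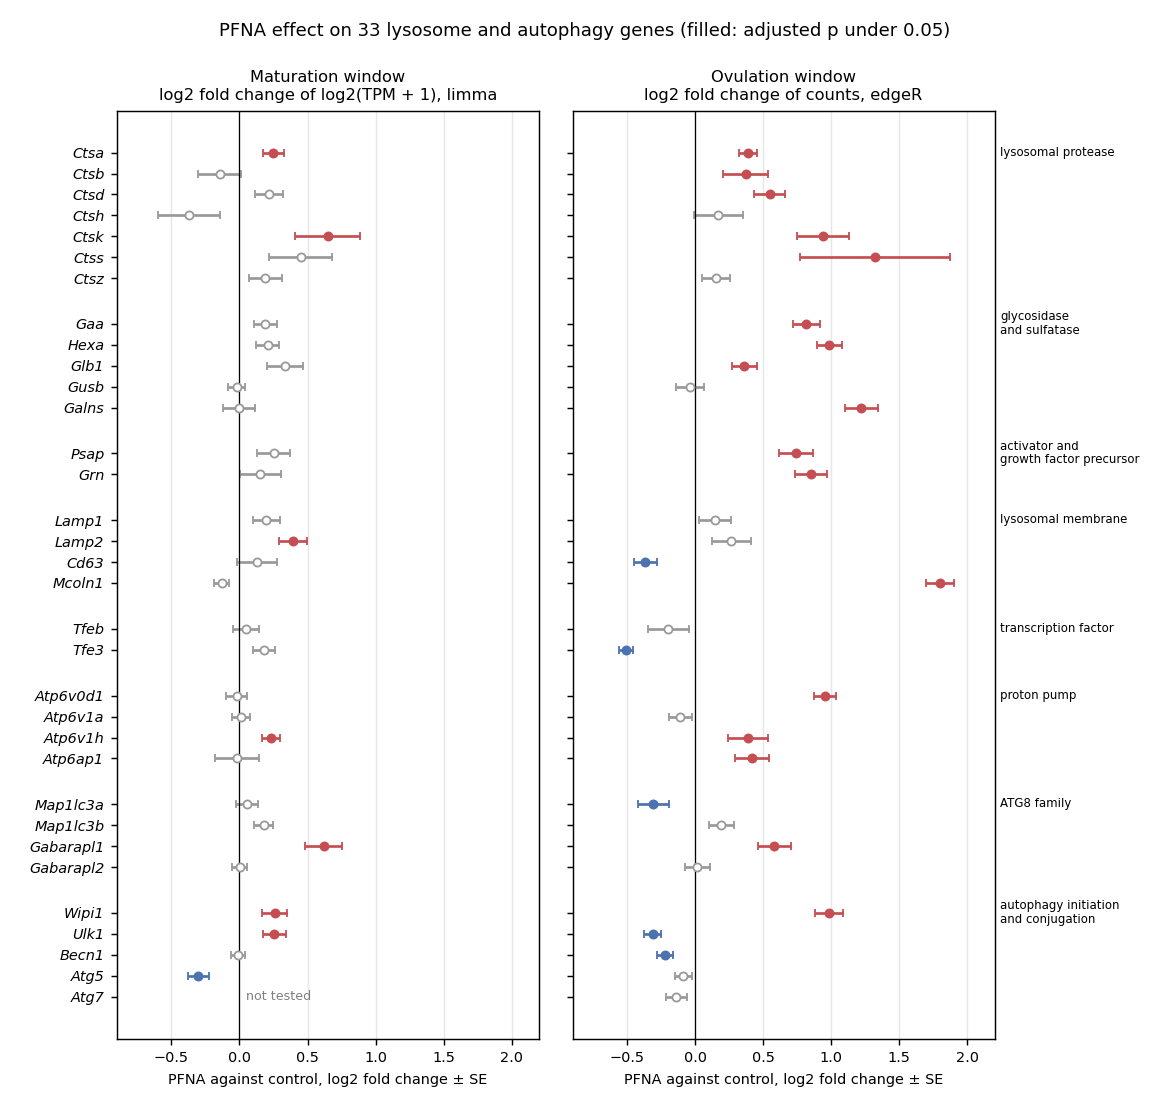
The log2 fold change of each of the 33 members with PFNA (x axis, ± SE) in the maturation window (left, 11 control and 10 PFNA libraries) and the ovulation window (right, 12 and 11), grouped by role, with filled points for members called higher (red) or lower (blue) at adjusted p under 0.05. Mcoln1 stands farthest to the right in the ovulation window at 1.80, and the maturation effects lie between -0.37 and 0.65.

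Libraries of the same group were not alike, and several results below rest on a few of them. Maturation PFNA replicates 1 and 2 lay close to the controls, and replicate 1 was the lowest PFNA library for 14 members and replicate 2 for 7, while PFNA replicate 10 was the highest for 15. Ovulation PFNA replicates 6 and 5 were highest for 17 and 10 members and had the highest Lhcgr levels (the LH receptor) of that window, 779 and 365 CPM, and replicates 2 and 10 were each lowest for 12. Leaving out maturation PFNA replicates 1 and 2 together gave 16 members higher and 2 lower, leaving out replicate 1 alone 15 and 2, replicate 2 alone 13 and 1, and control replicate 11 or PFNA replicate 6 gave 2 lower. All genes gained calls as well without replicates 1 and 2, to 2600 higher and 2601 lower of 13725, from 1824 and 2206 of 13712. Without ovulation PFNA replicates 5 and 6, a choice made after the data were seen, 14 members were higher and 5 lower with a median of 0.12. All genes then had 5250 higher and 4880 lower of 13591 with a median of 0.04, so the members stood nearer to all genes. Without replicates 2 and 10, also chosen after the data were seen, 21 members were higher and 4 lower with a median of 0.40. All genes then had 4992 higher and 4741 lower of 13539 with a median of 0.03. With all libraries they had 5101 and 4736 of 13441. Ovulation totals, in units of 1e+06 counts, ran from 11.96 to 16.05 in controls and from 10.6 to 19.5 with PFNA, and the depth behind the maturation TPM is unknown.

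The follicle's cell markers moved with the groups as well. All 11 oocyte markers tested were lower in the maturation window, where their summed level was 167 to 262 TPM in controls and 7.11 to 389 TPM with PFNA (medians 215 and 14.9), and 5 of 11 were higher in the ovulation window (91.3 to 442 CPM against 20.6 to 526 CPM). Of 9 granulosa markers, 1 was higher and 5 lower in the maturation window (32387 to 52328 TPM against 14203 to 38940 TPM), and 6 were higher and 2 lower in the ovulation window (12453 to 19380 CPM against 10842 to 17456 CPM). The maturation PFNA libraries fell apart by the summed oocyte level: replicates 1, 2 and 10 had 167, 145 and 389 TPM. The other 7 had 7.11 to 17.4 TPM. Replicates 1 and 2, whose removal raises the members' calls, are thus among those with oocyte transcripts near or above control levels. Other markers moved in the ovulation window too. All 6 endothelial markers tested were higher (30.0 to 123 CPM summed in controls, 39.3 to 364 CPM with PFNA), as were both surface epithelium markers tested of 6 (5.44 to 23.1 CPM and 23.6 to 76.3 CPM). Of 6 theca markers 4 were higher and 1 lower (587 to 2501 CPM and 266 to 1355 CPM). Of all genes, 13.3% were higher and 16.1% lower in the maturation window, and 38.0% and 35.2% in the ovulation window. None of these markers was at 0 in every library. In bulk RNA, fewer cells of a type and less RNA per cell cannot be told apart. With the summed oocyte level as a covariate, 5 members were called higher and 0 lower in the maturation window, and 22 higher and 4 lower in the ovulation window. The same fits called 1964 higher and 1418 lower of all 13712 genes, and 4618 and 4548 of all 13441 genes. Members gained as higher in that ovulation fit were Ctsh, Ctsz, Lamp1, Lamp2 and Map1lc3b. The part of the granulosa, endothelial, surface epithelium and theca markers in these results was not tested.

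**Figure D2:**
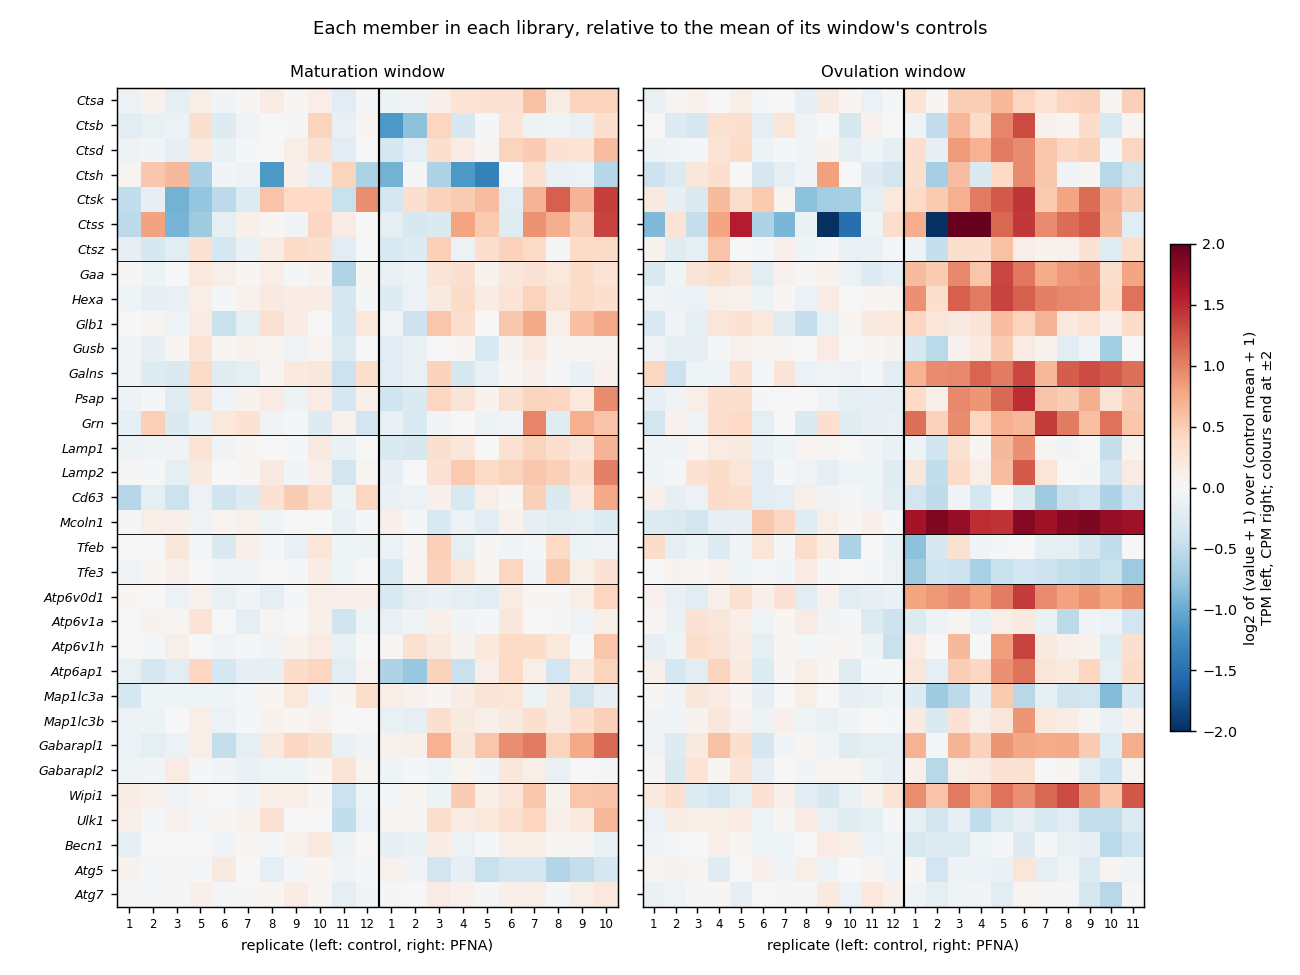
Each of the 33 members (rows, in the order of the sections by role) in each library (columns, control left and PFNA right of the black line) as log2 of the value plus 1 over the control mean plus 1, in TPM for the maturation window and CPM for the ovulation window, with colours ending at ±2. Maturation PFNA replicates 1 and 2 look like controls in most rows, and in the ovulation window Mcoln1, Hexa, Galns, Atp6v0d1 and Wipi1 are red in every PFNA library.

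Among the 7 cathepsins and related proteases, 5 were called higher in the ovulation window and 2 in the maturation window, with 0 lower in both. The shares over all genes were 38.0% higher and 35.2% lower in the ovulation window, and 13.3% and 16.1% in the maturation window. Of 8 further lysosomal proteases, 5 were higher in the ovulation window and 3 lower (Ctsl, Ctsc and Lgmn). Ctsl, another cathepsin, fell there from a mean of 2317 to 1393 CPM (log2 -0.73, SE 0.15, edgeR adjusted p = 9.63e-05). For it 9 of 11 PFNA libraries lay below every control. Ctsa encodes cathepsin A, a carboxypeptidase that also shields other lysosomal enzymes. Its lowest, median and highest levels in the ovulation window were 105, 117 and 134 CPM in controls and 121, 159 and 187 CPM with PFNA. The groups overlapped, with 9 of 11 PFNA libraries above every control, and the log2 fold change was 0.39 (SE 0.07, edgeR adjusted p = 9.68e-06). Ctsa in the maturation window had 160, 191 and 209 TPM in controls and 175, 227 and 280 TPM with PFNA, with 7 of 10 PFNA libraries above every control (log2 fold change 0.25, SE 0.08, limma adjusted p = 0.0197). Over the alternatives other than leaving out single libraries, the maturation adjusted p of Ctsa ran from 0.000656 to 0.0624, the last with the oocyte covariate.

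Ctsd, the main aspartic protease of lysosomes, had 277, 302 and 405 CPM in ovulation controls and 281, 433 and 647 CPM with PFNA. It rose with a log2 fold change of 0.55 (SE 0.11, adjusted p = 0.000121), with 8 of 11 PFNA libraries above every control. Its maturation means were 315 ± 36.2 TPM (SD, n = 11) and 371 ± 74.9 TPM (SD, n = 10), which did not pass (adjusted p = 0.115), and it was called there without PFNA replicate 1 or without PFNA replicate 2 (adjusted p as low as 0.0215). Of its 2351 exon bases, 808 are shared with Gm49369 on the same strand, so reads within the shared bases cannot be told apart.

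Ctsb, a cysteine protease, passed narrowly in the ovulation window. Its levels were 366, 462 and 582 CPM in controls and 327, 492 and 1143 CPM with PFNA, and the groups overlapped, with 5 PFNA libraries above and 1 below every control. PFNA replicates 6 and 5 were the highest. The log2 fold change of 0.37 (SE 0.16, adjusted p = 0.0448) passed in 10 of 23 fits that left out a library. It was lost without control replicate 1, 2, 3, 6, 8, 9, 10 or 12 or PFNA replicate 3, 4, 5, 6 or 9, with log2 values of 0.23 to 0.43 and adjusted p up to 0.135 over the 23 fits. Without replicates 5 and 6 together it was 0.12 (adjusted p = 0.381, within a range of 0.0048 to 0.381 over the alternatives). Its log2 fold change in the maturation window was -0.15 (adjusted p = 0.52).

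Ctsk and Ctss, cysteine proteases known from osteoclasts and from macrophages and other antigen-presenting cells, were low in these follicles. Ctsk had 3.52, 6.7 and 11.3 CPM in ovulation controls and 9.4, 12.1 and 20.3 CPM with PFNA, so the groups overlapped little, with 7 of 11 PFNA libraries above every control. Its log2 fold change was 0.94 (SE 0.19, adjusted p = 8.56e-05). Ctsk in the maturation window had 3.55, 6.28 and 15.6 TPM in controls and 5.96, 11.9 and 21.9 TPM with PFNA, a log2 fold change of 0.65 (SE 0.24, adjusted p = 0.0456). That call held in 7 of 21 fits that left out a library. It was lost without control replicate 1, 2, 3, 5, 6, 7 or 11 or PFNA replicate 3, 4, 5, 7, 8, 9 or 10, with log2 values of 0.55 to 0.75 and adjusted p up to 0.0877, and also without a filter on low values (adjusted p = 0.0661, within 0.00747 to 0.0661 over the alternatives).

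Ctss ran from 0 to 15.03 CPM with a median of 3.39 in ovulation controls, and from 0 to 23.1 CPM with a median of 10.7 with PFNA. Libraries at 0 occurred in both groups, with 2 of 11 PFNA libraries higher than any control. The log2 fold change was 1.32 with an SE of 0.55 (adjusted p = 0.0343), and it did not pass without control replicate 1 or 7 or PFNA replicate 3 or 4 (log2 1.15 to 1.69 and adjusted p up to 0.0683 over 23 fits). Nor did it pass without a filter on low counts (adjusted p = 0.0512) or without PFNA replicates 5 and 6 together (adjusted p = 0.0598), within 0.00785 to 0.0708 over the alternatives. Ctss in the maturation window averaged 0.902 ± 0.656 TPM and 1.65 ± 1.09 TPM, with adjusted p = 0.156.

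Some macrophage markers were also higher with PFNA. Of 12 macrophage markers, 10 were tested in the ovulation window, where 5 were higher (C1qa, C1qb, C1qc, Tyrobp and Mrc1) and 0 lower. Of all genes, 38.0% were higher there. Cd14 went the other way without being called (log2 fold change -0.55, edgeR adjusted p = 0.32). The summed level of the 12 markers was 1.79 to 148 CPM in controls and 2.32 to 174 CPM with PFNA. PFNA replicate 2, in which Ctss was at 0, had the lowest sum of the PFNA libraries, and PFNA replicate 4, in which Ctss was highest, had the highest sum. The maturation fit tested 6 of 12 and C1qa was higher, with sums of 7.38 to 99.5 TPM and 44.2 to 237 TPM. Of all genes, 13.3% were higher in that window. Fcer1g was too low to be tested there and averaged 0.99 TPM in controls and 0.58 TPM with PFNA. None of the 12 was at 0 in every library, and their part in the results of Ctss and Ctsk was not tested.

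Ctsz and Ctsh, a carboxypeptidase and an aminopeptidase, were called in neither window. Ctsz had ovulation means of 120 ± 19.9 CPM (SD, n = 12) and 133 ± 26.7 CPM (SD, n = 11) with adjusted p = 0.179, and passed without control replicate 4 (adjusted p = 0.0396). Ctsh varied widely within both groups, from 65.2 to 155 CPM in ovulation controls and from 54.8 to 169 CPM with PFNA (adjusted p = 0.395). Maturation levels of Ctsh ran from 62.0 to 217 TPM and from 53.4 to 170 TPM (log2 fold change -0.37, SE 0.23, adjusted p = 0.229).

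Among the 5 glycosidases and sulfatases, 4 were called higher in the ovulation window and 0 in the maturation window, against 38.0% and 13.3% of all genes. For 3 of the 5 (60%) the effects differed between windows, against 67.7% of all genes. Galns, the sulfatase that removes sulfate from keratan sulfate and chondroitin sulfate, had 3.23, 4.39 and 6.57 CPM in ovulation controls and 8.02, 11.2 and 13.3 CPM with PFNA. All 11 PFNA libraries lay above all 12 controls, a 2.33-fold rise (log2 1.22, SE 0.12, adjusted p = 1.96e-09). Its maturation means were 2.05 ± 0.598 and 2.02 ± 0.498 TPM (log2 -0.01, adjusted p = 0.976), and the effects differed by 1.08 (SE 0.16).

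Hexa, the alpha subunit of beta-hexosaminidase, which degrades gangliosides, had 85.1, 94.0 and 104 CPM in ovulation controls and 118, 188 and 239 CPM with PFNA. The groups did not overlap, and PFNA replicates 2 and 10, at 118 and 121 CPM, came nearest to the controls. The rise was 1.98-fold (log2 0.99, SE 0.09, adjusted p = 4.91e-10). Maturation levels of Hexa were 51.4 ± 5.85 and 59.7 ± 8.76 TPM (log2 0.21, adjusted p = 0.0696), and it passed there without PFNA replicate 1 or without PFNA replicate 2 (adjusted p as low as 0.0116). The difference between windows was 0.75 (SE 0.13).

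Gaa encodes acid alpha-glucosidase, which degrades glycogen in lysosomes. Ovulation controls had 243, 292 and 373 CPM and PFNA libraries 374, 517 and 753 CPM. The lowest PFNA library, replicate 10, lay just above the highest control, replicate 4, and the rise was 1.76-fold (log2 0.82, SE 0.10, adjusted p = 6.3e-08). For Gaa in the maturation window 7 of 10 PFNA libraries exceeded all controls, at 228 ± 26.5 against 200 ± 25.8 TPM, without passing (adjusted p = 0.0991), and it passed without PFNA replicate 1 or without PFNA replicate 2 (adjusted p as low as 0.0414). The effects differed by 0.62 (SE 0.13).

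Glb1, lysosomal beta-galactosidase, rose less. It had 36.4, 50.2 and 61.8 CPM in ovulation controls and 54.2, 61.5 and 81.7 CPM with PFNA, with 5 of 11 PFNA libraries above every control (log2 fold change 0.36, SE 0.09, adjusted p = 0.000933). The maturation value was close to it in size, 0.34 (SE 0.13), and did not pass (adjusted p = 0.0653) except without control replicate 8 or PFNA replicate 1 or 2 (adjusted p as low as 0.0109). The difference between windows was 0.03 (SE 0.16, adjusted p = 0.885). Its exons share bases with Tmppe on the same strand. Gusb, beta-glucuronidase, had log2 fold changes of -0.02 (SE 0.07) and -0.04 (SE 0.10) and was called in neither window, although its ovulation PFNA libraries spread wider (39.3 to 91.1 CPM) than its controls (55.5 to 71.7 CPM).

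Psap and Grn encode precursors that are cut in the lysosome, prosaposin into the saposins that present lipids to hydrolases, and progranulin into granulins. Psap had 508, 561 and 739 CPM in ovulation controls and 634, 869 and 1630 CPM with PFNA. With 9 of 11 PFNA libraries above every control, it rose 1.67-fold (log2 0.74, SE 0.13, adjusted p = 9.41e-06). Grn had 104, 125 and 178 CPM in controls and 182, 222 and 356 CPM with PFNA, with no overlap between groups and a 1.81-fold rise (log2 0.85, SE 0.12, adjusted p = 3.49e-07). Both effects were larger than in the maturation window, by 0.45 (SE 0.17) for Psap and 0.68 (SE 0.19) for Grn. There Psap was 251 ± 31.7 and 306 ± 82.2 TPM (adjusted p = 0.138) and Grn 421 ± 80.2 and 483 ± 168 TPM (adjusted p = 0.472). Psap passed in the maturation window without PFNA replicate 1 (adjusted p = 0.033), and without replicates 1 and 2 its difference between windows was 0.30 and did not pass (adjusted p = 0.0839, within a range of 0.00568 to 0.0839 over the alternatives).

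**Figure D3:**
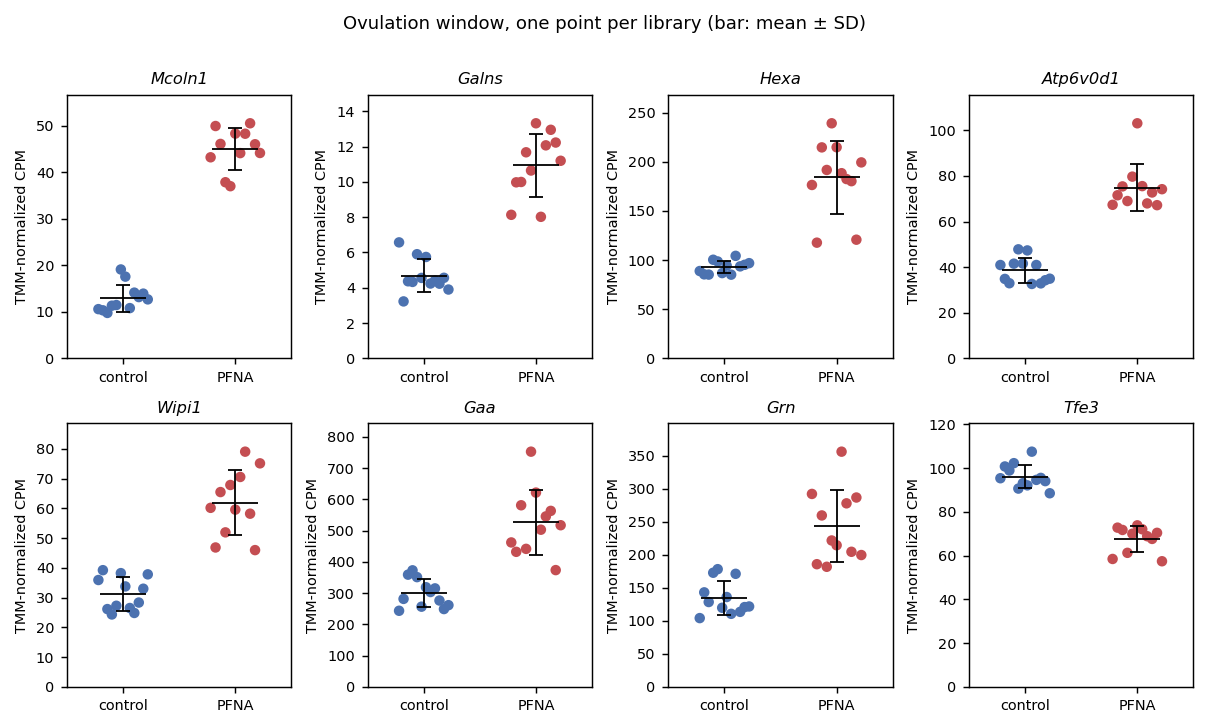
TMM-normalized CPM (y axis, from 0) of the 8 members whose ovulation groups did not overlap, with a point for each of 12 control (blue) and 11 PFNA (red) libraries and bars for the mean ± SD. Mcoln1, Galns, Hexa, Atp6v0d1, Wipi1, Gaa and Grn lie higher with PFNA in every library and Tfe3 lies lower.

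The 4 membrane proteins did not move together in the ovulation window, where 1 was higher, 1 lower and 2 were not called. All genes stood at 38.0% higher and 35.2% lower in that window. Mcoln1 encodes the calcium-permeable channel TRPML1, through which lysosomal calcium is released. It had 9.77, 12.1 and 19.1 CPM in controls and 37.0, 46.0 and 50.5 CPM with PFNA. The groups lay far apart, and the mean of 45.0 ± 4.45 CPM with PFNA (SD, n = 11) against 12.9 ± 2.92 CPM in controls (SD, n = 12) was a 3.48-fold change (log2 1.80, SE 0.10, adjusted p = 6.09e-14). This was the largest log2 fold change of the 33 members, and it stayed between 1.77 and 1.87 whichever library was left out. Mcoln1 in the maturation window was 31.3 ± 1.90 and 28.6 ± 3.02 TPM, with 6 of 10 PFNA libraries below every control (log2 -0.13, SE 0.05, adjusted p = 0.0747). It passed as lower there without control replicate 11 or PFNA replicate 1 or 6 (adjusted p as low as 0.0231). The difference between windows, 1.88 (SE 0.11), was the largest of the members. Mcoln1 lies on chromosome 8 (3500457 to 3515232 in the maturation table), directly after its printed promoter stretch.

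Lamp1 and Lamp2, the abundant glycoproteins that line the lysosome, gave other results. Lamp2 had 33.1, 43.7 and 48.8 TPM in maturation controls and 37.9, 57.3 and 87.6 TPM with PFNA. PFNA replicates 1 and 2, at 37.9 and 43.1 TPM, lay among the controls and the other 8 above all of them, and the log2 fold change was 0.39 (SE 0.11, adjusted p = 0.00757). Lamp2 in the ovulation window had 328, 368 and 502 CPM in controls and 277, 434 and 916 CPM with PFNA. It did not pass there (log2 0.27, SE 0.14, adjusted p = 0.0955), and passed without PFNA replicate 2 or without PFNA replicate 10 (adjusted p as low as 0.0348). The difference between windows was -0.19 (SE 0.17, adjusted p = 0.347), so a change confined to maturation is not shown.

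Lamp1 was called in neither window, with log2 fold changes of 0.20 (SE 0.10, adjusted p = 0.141) and 0.14 (SE 0.12, adjusted p = 0.277). It passed in the maturation window without PFNA replicate 1 or without PFNA replicate 2 (adjusted p as low as 0.0335). In the ovulation window its PFNA libraries ran from 338 to 879 CPM, below and above the control range of 423 to 529 CPM. Lamp1 passed as higher there with the oocyte covariate or without PFNA replicates 2 and 10 together (edgeR adjusted p as low as 0.00952). Over the alternatives its ovulation log2 value ran from -0.05 to 0.31. Its promoter, printed above, has 4 of the E-box letters' matches and that of Mcoln1 has 2. Cd63, a tetraspanin of late endosomes and exosomes, fell in the ovulation window. Its control mean was 264 ± 41.0 CPM (SD, n = 12) and its PFNA mean 205 ± 30.5 CPM (SD, n = 11). Control libraries had 224, 250 and 343 CPM and PFNA libraries 161, 202 and 264 CPM, with 9 of 11 below every control (log2 -0.37, SE 0.09, adjusted p = 0.000562). Its maturation levels were 63.8 ± 17.2 and 69.5 ± 17.7 TPM (adjusted p = 0.547), and the effects differed by -0.49 (SE 0.17).

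The transcripts of the regulators TFEB and TFE3 were called higher in neither window. Tfe3 had 88.5, 95.0 and 108 CPM in ovulation controls and 57.4, 70.0 and 73.8 CPM with PFNA. No PFNA library reached the lowest control, and the fall was to 0.704 of the control level (log2 -0.51, SE 0.05, adjusted p = 2.38e-09). Maturation levels of Tfe3 were 49.0 ± 2.66 and 56.3 ± 10.1 TPM, which passed as higher without PFNA replicate 1 (adjusted p = 0.0128) and not with all libraries (log2 0.18, adjusted p = 0.104), and the effects differed by -0.68 (SE 0.10). Tfeb was low in both, with 1.82 ± 0.307 and 1.93 ± 0.488 TPM (adjusted p = 0.747) and 6.26 ± 1.35 and 5.46 ± 1.28 CPM (log2 -0.20, adjusted p = 0.236). These are transcript levels, and the location of the proteins was not measured here.

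Of the 4 proton pump members, 3 were higher in the ovulation window and 1 in the maturation window, where all genes stood at 38.0% and 13.3%. The 12 further proton pump genes did not share this direction. In the ovulation window 3 of them were higher and 3 lower, with a median log2 fold change of -0.098. In the maturation window 0 were higher and 2 lower. Atp6v0d1, a subunit that couples the membrane ring to the central stalk, had 32.6, 38.0 and 47.8 CPM in ovulation controls and 67.2, 72.8 and 103 CPM with PFNA. The groups did not overlap, and the level rose 1.94-fold (log2 0.96, SE 0.08, adjusted p = 8.83e-11). Its level in the maturation window was 13.6 ± 1.09 and 13.5 ± 2.37 TPM (log2 -0.02, adjusted p = 0.86), a difference of 0.96 (SE 0.11) between windows.

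Atp6v1h, a regulatory subunit of the pump's cytosolic part, passed in both windows. It had in the maturation window 4.83, 5.37 and 6.18 TPM in controls and 5.47, 6.45 and 8.46 TPM with PFNA, with 7 of 10 PFNA libraries above every control (log2 0.23, SE 0.07, adjusted p = 0.0105). The ovulation values were 66.0, 90.5 and 116 CPM and 76.4, 101 and 232 CPM (log2 0.39, SE 0.15, adjusted p = 0.0191). PFNA replicates 6, 5 and 3 lay above every control, and without replicates 5 and 6 the log2 value was 0.16 (adjusted p = 0.143, within 0.000815 to 0.143 over the alternatives). Atp6ap1, an accessory subunit, rose in the ovulation window by 0.42 on the log2 scale (SE 0.13, adjusted p = 0.00476), with means of 164 ± 26.6 CPM in controls (SD, n = 12) and 218 ± 62.4 CPM with PFNA (SD, n = 11). Atp6v1a, the catalytic subunit, was called in neither window (log2 0.01, SE 0.07, and -0.11, SE 0.08).

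Of the 4 ATG8 family members, 1 was higher and 1 lower in the ovulation window, against 38.0% and 35.2% of all genes. Gabarapl1, of the GABARAP branch, passed as higher in both windows. Maturation controls had 56.8, 73.3 and 107 TPM and PFNA libraries 84.2, 123 and 175 TPM, with 7 of 10 PFNA libraries above every control (log2 0.62, SE 0.14, adjusted p = 0.00167). Its lowest PFNA libraries, replicates 1 and 2, had 84.2 and 85.2 TPM. Ovulation libraries had 220, 265 and 418 CPM and 236, 455 and 518 CPM, with 7 of 11 above every control (log2 0.58, SE 0.12, adjusted p = 0.000144). The difference between windows was -0.05 (SE 0.18, adjusted p = 0.822).

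Map1lc3a and Map1lc3b encode LC3A and LC3B, which coat autophagosomes. Map1lc3a fell in the ovulation window, with means of 124 ± 11.3 CPM in controls (SD, n = 12) and 100 ± 29.2 CPM with PFNA (SD, n = 11), or -0.31 on the log2 scale (SE 0.11, adjusted p = 0.0155). Its controls had 110, 124 and 146 CPM and PFNA libraries 67.2, 95.8 and 178 CPM, so 9 PFNA libraries lay below every control and replicate 5 lay above. Without PFNA replicates 2 and 10 it was -0.22 (adjusted p = 0.0599) and with the oocyte covariate -0.15 (adjusted p = 0.156), within 5.37e-05 to 0.156 over the alternatives. Maturation levels of Map1lc3a were 352 ± 45.7 and 367 ± 48.0 TPM (adjusted p = 0.643), a difference of -0.40 (SE 0.13) between windows.

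Map1lc3b lay just over the threshold in both windows. It was 124 ± 7.32 and 141 ± 20.3 TPM in the maturation window (log2 0.18, SE 0.07, adjusted p = 0.06) and 112 ± 8.53 and 128 ± 29.9 CPM in the ovulation window (log2 0.19, SE 0.09, adjusted p = 0.0582). It passed without maturation PFNA replicate 1 or 2 (adjusted p as low as 0.0104) and without ovulation control replicate 4 or PFNA replicate 2 or 10 (adjusted p as low as 0.0163). Gabarapl2 had log2 fold changes of 0.00 (SE 0.05) and 0.02 (SE 0.09) and was called in neither.

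Among the 5 genes of autophagy initiation and conjugation, 1 was higher and 2 lower in the ovulation window, against 38.0% and 35.2% of all genes. In the maturation window 2 were higher and 1 lower, against 13.3% and 16.1%. Wipi1 encodes a protein that binds the phosphoinositide of the growing membrane. It had 24.3, 30.6 and 39.2 CPM in ovulation controls and 46.0, 60.2 and 79.1 CPM with PFNA, with no overlap and a 1.98-fold rise (log2 0.98, SE 0.10, adjusted p = 5.27e-09). Maturation libraries had 12.2, 16.8 and 18.5 TPM and 15.4, 18.9 and 25.1 TPM (log2 0.26, SE 0.09, adjusted p = 0.0402). The maturation call held in 10 of 21 fits that left out a library. It was lost without control replicate 3, 5, 6, 7, 11 or 12 or PFNA replicate 4, 6, 7, 9 or 10, with log2 values of 0.22 to 0.30 and adjusted p up to 0.0775. It was also lost without a filter on low values (adjusted p = 0.0564) and with the oocyte covariate (adjusted p = 0.0624), within 0.0121 to 0.204 over the alternatives. The effects differed by 0.70 (SE 0.14).

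Ulk1, the kinase that starts autophagy and a direct target of mTORC1 and AMPK, was called in opposite directions. It had 23.0, 32.6 and 40.0 TPM in maturation controls and 33.1, 37.7 and 52.1 TPM with PFNA, with 4 of 10 PFNA libraries above every control (log2 0.26, SE 0.08, adjusted p = 0.0231). Its ovulation levels were 91.8, 109 and 123 CPM and 77.1, 89.9 and 96.5 CPM, with 7 of 11 PFNA libraries below every control (log2 -0.31, SE 0.06, adjusted p = 6.04e-05). The difference was -0.56 (SE 0.10, adjusted p under the threshold in all 4 alternatives of that test, at most 0.000163).

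Becn1 encodes Beclin 1 of the lipid kinase complex. It fell in the ovulation window, from 86.4, 92.4 and 105 CPM to 64.1, 78.3 and 92.4 CPM, with 8 of 11 PFNA libraries below every control (log2 -0.22, SE 0.06, adjusted p = 0.00131). It stood at 46.2 ± 3.33 and 45.9 ± 3.90 TPM in the maturation window (adjusted p = 0.896). The difference of -0.21 (SE 0.08) did not pass with median-ratio size factors (-0.16, adjusted p = 0.085, within 0.00536 to 0.085 over the alternatives). In the annotation, 3104 of its 7065 exon bases are shared with Cntd1 on the other strand. Whether reads were counted by strand is not given in the sources used here, so reads of both may be mixed. The same limit holds for other members, as 12 share exon bases with another gene, 2 of them on the same strand. On the other strand, Gabarapl1 shares 570 of 2013 bases with 1700101I11Rik, Ctsb 774 of 6051 with Fdft1 and Hexa 255 of 1996 with Tmem202.

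Atg5, part of the complex that attaches lipid to ATG8 proteins, was the member that fell in the maturation window. It had 3.72, 4.26 and 5.07 TPM in controls and 2.54, 3.18 and 4.67 TPM with PFNA. PFNA replicates 1, 4 and 2, at 4.67, 3.75 and 4.12 TPM, lay in the control range and the other 7 below it (log2 -0.30, SE 0.08, adjusted p = 0.00492). With the oocyte covariate it was -0.24 (adjusted p = 0.0661, within 8.48e-05 to 0.0661 over the alternatives). Ovulation levels of Atg5 were 45.4 ± 3.29 and 42.8 ± 5.18 CPM (log2 -0.09, adjusted p = 0.23), and the difference between windows, 0.21 (SE 0.10), did not pass (adjusted p = 0.0548). It passed in 3 of 4 alternatives: with median-ratio size factors, without maturation PFNA replicates 1 and 2, and with a pseudocount of 0.1 (adjusted p from 0.00383 to 0.0583 over the 4). Atg7, the E1-like enzyme of the conjugation, was 0.912 ± 0.120 and 1.01 ± 0.127 TPM, under the limit for testing, and 16.5 ± 1.47 and 14.99 ± 1.84 CPM in the ovulation window (log2 -0.14, SE 0.08, adjusted p = 0.125).

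**Figure D4:**
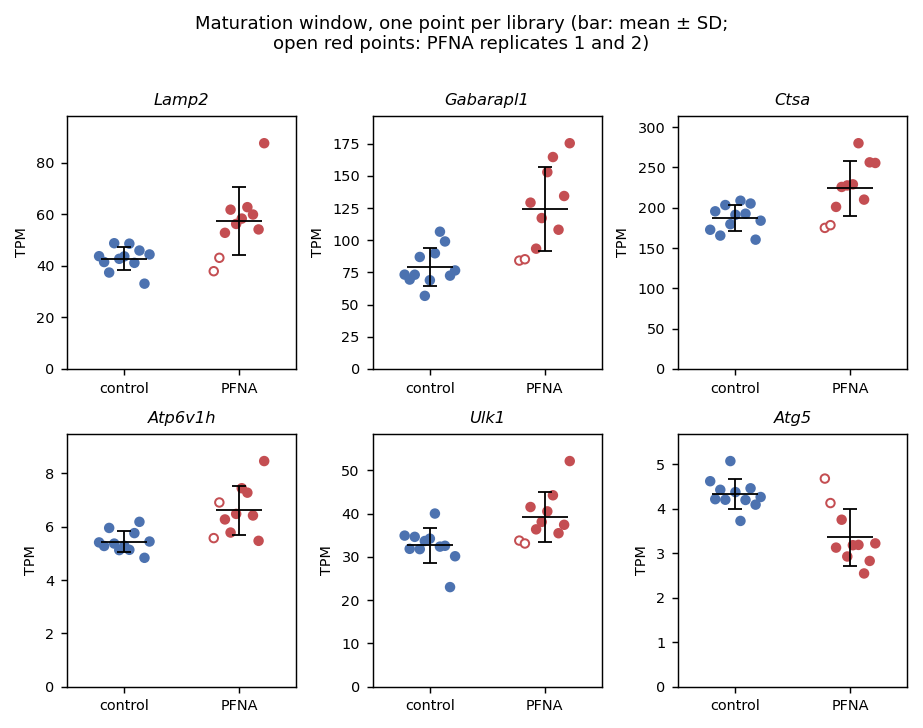
TPM (y axis, from 0) in the maturation window of 6 of the 8 members called there, with a point for each of 11 control (blue) and 10 PFNA (red) libraries, open points for PFNA replicates 1 and 2, and bars for the mean ± SD. Lamp2, Gabarapl1, Ctsa, Atp6v1h and Ulk1 lie higher and Atg5 lower with PFNA on average, and the open points lie within the control range except for Atp6v1h, where replicate 2 is above it.

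Per transcript length, the members covered a wide range of levels in the maturation controls. Grn (421 TPM), Map1lc3a (352 TPM), Ctsd (315 TPM), Psap (251 TPM) and Lamp1 (220 TPM) were the highest by mean. Ctss (0.902 TPM), Atg7 (0.912 TPM), Tfeb (1.82 TPM) and Galns (2.05 TPM) were the lowest.

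The split by role seen in the members was also described in 120 other genes of the same pathways, listed by function. Ovulation calls were higher for 55 of 120 (45.8%) and lower for 42 (35%), with a median log2 fold change of 0.14, so the 120 genes together stood nearer to all genes than the 33 members did. All genes stood at 38.0% higher and 35.2% lower. By role, 18 of 23 (78.3%) glycosidases, sulfatases and lipid hydrolases were higher and 2 lower (8.70%), and 4 of 5 autophagy receptors were higher and 0 lower. Of 24 genes of the autophagy machinery 8 were higher (33.3%) and 14 lower (58.3%), and of 15 genes of fusion and trafficking 2 were higher (13.3%) and 8 lower (53.3%). Of 117 tested in the maturation window 21 were higher (17.9%) and 17 lower (14.5%), with a median of 0.06. All genes stood at 13.3% higher and 16.1% lower there, with a median of 0.02. Neither these lists nor the differences between them were tested.

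Of the genes of smallest p in the ovulation window, Atp6v0a1, the membrane subunit that carries protons through the V-ATPase, rose by 2.67 on the log2 scale (SE 0.14), with means of 35.6 ± 8.30 CPM in controls (SD, n = 12) and 227 ± 59.8 CPM with PFNA (SD, n = 11). All 11 PFNA libraries lay above every control. Calcoco1, an autophagy receptor, and the hydrolase genes Idua and Naglu, both for breakdown of glycosaminoglycans, had log2 fold changes of 0.88, 1.48 and 0.94. Sqstm1, which encodes the receptor p62, rose from 578 ± 48.9 to 1037 ± 145 CPM (log2 0.84, SE 0.07, adjusted p = 1.16e-10), and was 375 ± 27.4 and 424 ± 57.5 TPM in the maturation window (adjusted p = 0.0802). Mitf, the TFEB relative, rose from 5.16 ± 1.39 to 10.9 ± 1.73 CPM (log2 1.07, adjusted p = 2.05e-07) with no overlap between groups, opposite in direction to Tfe3, and was under the testing limit in the maturation window. Naglu was called lower in the maturation window (log2 -0.52, limma adjusted p = 0.0184) and Calcoco1 higher (log2 0.48, limma adjusted p = 0.019). Atp6v0a1 and Idua were not called there.

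Among those that fell, Rragd and Rptor belong to the nutrient sensing system that holds mTORC1 at the lysosome. Rragd, a Rag GTPase, fell from 225 ± 34.7 to 74.3 ± 16.7 CPM (log2 -1.60, SE 0.12, adjusted p = 1.04e-11). It was higher in the maturation window, at 1.98 ± 0.865 and 4.39 ± 2.62 TPM (log2 0.78, SE 0.20, adjusted p = 0.00642). Rptor, the mTORC1 subunit Raptor, fell from 102 ± 4.68 to 53.8 ± 7.95 CPM (log2 -0.92). Plekhm1, an adaptor for fusion of autophagosomes with lysosomes, fell with a log2 fold change of -0.88, and Pla2g15, a lysosomal phospholipase, with -1.41. For these 4 genes all 11 PFNA libraries lay below every control. Plekhm1, like Rragd, was called higher in the maturation window (log2 0.20, limma adjusted p = 0.0414), and Rptor and Pla2g15 were not called there.

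In the maturation window the genes of smallest p that were higher were Ulk2, a relative of Ulk1 (log2 0.46), Galc, a galactosidase of myelin lipids (0.51), Atg14, a partner of Beclin 1 (0.32), and the protease gene Ctsf (0.62). Those lower were Atp6v0c, the proton-carrying ring subunit (-0.29), the protease gene Ctsc (-1.13), and the glycosidase genes Gla (-0.61) and Neu1 (-0.36). Ctsc, the largest of these, had means of 25.6 ± 3.03 TPM in controls (SD, n = 11) and 12.4 ± 6.64 TPM with PFNA (SD, n = 10), with 9 of 10 PFNA libraries below every control. It was lower in the ovulation window too, from 375 ± 69.6 to 145 ± 43.5 CPM (log2 -1.37). Ulk2 was higher in both windows (0.46 and 0.90), unlike Ulk1. In the ovulation window Ctsf was also higher (0.67) and Gla also lower (-1.42), and Galc was not called. Neu1 reversed and was called higher there (log2 0.33, edgeR adjusted p = 0.000264). In the limma fit of that window Atp6v0c was at -0.36 and Atg14 at -0.47.

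**Figure D5:**
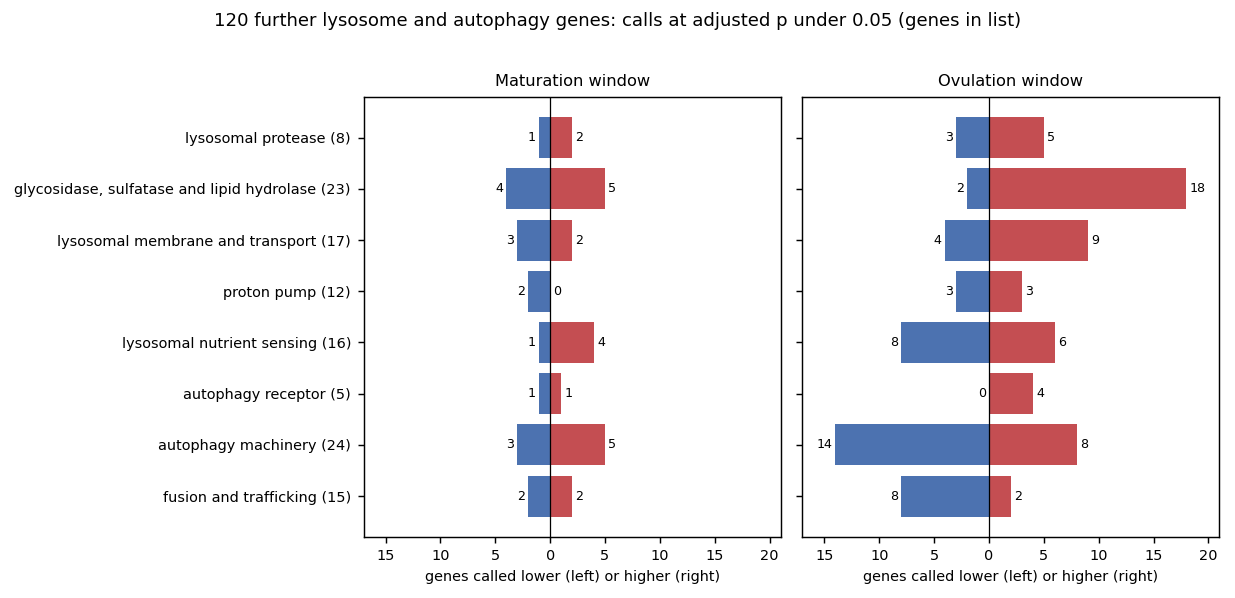
Number of genes (x axis) called higher (red, right) or lower (blue, left) with PFNA at adjusted p under 0.05 among the 120 further lysosome and autophagy genes, by role, in the maturation window (left) and the ovulation window (right). Glycosidases, sulfatases and lipid hydrolases are mostly on the higher side in the ovulation window (18 against 2). Proteases are at 5 against 3, and the autophagy machinery is mostly on the lower side (14 against 8).

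The E-box letters occurred among members called higher in the ovulation window and among members not called. CACGTG was in 6 of the 14 members called higher that had a promoter entry (42.9%), in 0 of 3 called lower and in 4 of 10 not called (40%). Hexa, Grn, Psap, Wipi1, Ctsk, Ctss, Gabarapl1 and Atp6ap1 were higher without the letters in their windows. Lamp1, with its 4 matches in the stretch printed above, was not called. It passed as higher only with the oocyte covariate or without PFNA replicates 2 and 10 together. Among the 120 further genes, 22 of the 96 with a promoter entry had the letters (22.9%).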

How the data were processed

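RNA sequencing of mouse ovarian follicles gave a gene table for each window. In the maturation table the authors deposited TPM: each library sums to 1e+06 and 82.6% of values are not whole. For the ovulation window the authors deposited estimated counts per gene (18.3% not whole, tolerance 1e-06), which were rounded before testing. The submitters' processing notes name Partek, Bowtie2 and HISAT2. Which of them aligned or counted, the annotation and the use of strand are not given in the sources used here. Gene starts of 99.4% of maturation symbols and 37.24% of ovulation symbols matched GENCODE M21 on GRCm38, and coordinates are 1-based from the maturation table. Samples were grouped by the labels and columns joined by title. Maturation control replicate 6 was matched to a column that differs from its title by 1 letter. No maturation control replicate 4 is among the 44 libraries, and 0 library columns were left unused.

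The ovulation window was tested with edgeR 4.0.16 (filterByExpr, TMM, robust quasi-likelihood) in R 4.3.3. For the maturation window, limma 3.58.1 was run with trend and robust settings on TPM after adding a pseudocount of 1 and taking log2, keeping genes whose mean reached 1 TPM. The difference between windows used limma within each table, with Satterthwaite degrees of freedom. P-values were two-sided and Benjamini-Hochberg adjusted over all genes tested, and an adjusted p under 0.05 was called. Tests were checked on simulated data. CPM are TMM-normalized. Alternatives included DESeq2 1.42.0, other scalings and filters, covariates and leaving out libraries. The 33 members and the lists were chosen with earlier results of these data known. All members are named, and of the 120 further genes, per window, the 4 higher and the 4 lower of smallest p, with Mitf and Sqstm1. Other genes were named after their values were seen. No libraries of a group were duplicates (correlation at most 0.981 in maturation controls, chi-square per degree of freedom at least 7.54 in the ovulation window).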

Additional observations from a re-analysis of the deposited data

Results flagged for a closer look

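Among the 10 maturation PFNA libraries, 3 members had a library far from the others, where chance gives about 1 in 20, or 1.65 of the 33 searched. The members were read in the same libraries, so the 33 results are not independent. The other groups, of 11 or 12 libraries, were not searched, because the rule used covers at most 10. Galns was at 3.22 TPM in replicate 3 and at most 2.27 TPM in the other 9. Psap was at 484 TPM and Lamp2 at 87.6 TPM in replicate 10, against at most 341 and 62.8 TPM in the others. Replicate 10 also had the highest summed macrophage (237 TPM), oocyte (389 TPM), endothelial (69.4 TPM) and surface epithelium (97.6 TPM) levels of that window. Its summed granulosa level, 14203 TPM, was the lowest. The part of these cell markers in the values was not tested.

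The effect of PFNA differed between windows for 13 members (limma within each table, adjusted p under 0.05). On the log2 scale, ovulation minus maturation, it was higher for Mcoln1 (1.88), Galns (1.08), Atp6v0d1 (0.96), Hexa (0.75), Wipi1 (0.70), Grn (0.68), Gaa (0.62) and Psap (0.45). It was lower for Tfe3 (-0.68), Ulk1 (-0.56), Cd63 (-0.49), Map1lc3a (-0.40) and Becn1 (-0.21). The tables differ in unit and gene models, so the windows and the processing of the tables cannot be told apart.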

How the results depend on the processing

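In the maturation window members called higher were 7, 4 with the replicate block and 16 without PFNA replicates 1 and 2 together, and 5 to 15 when a library was left out. Members called lower were 1, 0 with a filter at a mean of 5 TPM (Atg5 is then not tested), 0 with the oocyte covariate, 2 without PFNA replicates 1 and 2, and 1 to 2 when a library was left out. Genes called ranged from 3586 to 4588 in the maturation window and from 9654 to 10029 in the ovulation window when a library was left out, and ovulation members from 15 to 19 higher and 5 to 5 lower. With DESeq2, 18 ovulation members were higher and 5 lower, against 5314 and 4636 of all 13441 genes. Replicate numbers did not pair the samples: correlations of deviations were -0.14 to 0.17 over 9 maturation pairs and -0.20 to 0.07 over 11 ovulation pairs, and 1 of 9 and 0 of 11 libraries correlated best with their own number. With the replicate block, 14 ovulation members were higher and 5 lower, against 4671 and 4662 of all 13441 genes. The block gave 1032 higher and 1863 lower of all 13712 genes in the maturation window. Calls that did not pass with the block were those of Ctsa, Wipi1 and Ulk1 in the maturation window (adjusted p 0.0608, 0.204 and 0.1) and of Ctsb, Ctss and Atp6v1h in the ovulation window (0.0962, 0.0708 and 0.0765).

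Members called in neither fit changed sign, with adjusted p of at least 0.258; the cause was not tested. In the maturation window these were Atp6v1a (-0.018) and Gabarapl2 (-0.029) with median-ratio size factors; Gusb (0.0082), Galns (0.018), Atp6v0d1 (0.0059), Atp6ap1 (0.011) and Becn1 (0.018) after rescaling without the 20 most abundant genes; Galns (0.022), Atp6v0d1 (0.021), Atp6v1a (-0.034) and Atp6ap1 (0.012) with the replicate block; Galns (0.054), Tfeb (-2.3e-05), Atp6v0d1 (0.074), Atp6ap1 (0.032) and Gabarapl2 (-0.038) with the oocyte covariate. Without PFNA replicates 1 and 2 they were Ctsb (0.059), Gusb (0.019), Galns (0.032), Atp6v0d1 (0.034), Atp6ap1 (0.14) and Becn1 (0.022). In the ovulation window Gabarapl2 was at -0.017 without a filter, -0.013 with the replicate block and -0.060 without PFNA replicates 5 and 6, where Lamp1 was at -0.052, and Gusb at 0.11 with the oocyte covariate and 0.065 without PFNA replicates 2 and 10. For the difference between windows they were Ctsz (0.0063), Gusb (0.0062), Map1lc3b (0.043), Gabarapl1 (0.0058) and Gabarapl2 (0.055) with median-ratio size factors, and Glb1 (-0.11) without maturation PFNA replicates 1 and 2. The lowest members were Ctss, with values of 0 in both windows, and Atg7, under 1 TPM in maturation controls; whether depth sets these levels was not tested.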

Other observations

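The other roles among the 120 further genes were mixed in the ovulation window. Of 17 genes of lysosomal membrane and transport 9 were higher and 4 lower, of 8 further lysosomal proteases 5 and 3, of 12 further proton pump genes 3 and 3, and of 16 genes of nutrient sensing 6 and 8. The same roles in the maturation window had 2 higher and 3 lower, 2 and 1, 0 and 2, and 4 and 1. Of all genes, 38.0% were higher and 35.2% lower in the ovulation window, and 13.3% and 16.1% in the maturation window. Over the 117 genes tested in both windows the PFNA effect was higher in the ovulation window for 42 (35.9%) and lower for 37 (31.6%). These shares were near those of all 11215 genes tested in both, 32.0% and 35.6%.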
